A study of Mus musculus with 6 samples.

Results

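Ubiquitin-specific proteases, the largest family of deubiquitinases, are cysteine proteases that cut ubiquitin from proteins or take ubiquitin chains apart. In this way they spare their substrates from the proteasome, change histone ubiquitination, or return ubiquitin to the free pool. In embryonic stem cells the family includes regulators of histones H2A and H2B, of the p53 and Myc pathways, of DNA repair and of receptor traffic. The genes described here were the rows of the deposited table whose symbol was Usp followed by a number, with or without an x. There were 49 such genes of 23281 in the table, and the 45 with a mean of at least 100 reads over the libraries are reported.

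The cells were female mouse embryonic stem cells from a 129S X Cast background. Every culture carried a doxycycline-responsive TetOn promoter in place of the endogenous one at Xist on the 129S allele, and a Bgl stem-loop in the 3′ end of Xist. All were given 1 µg/ml doxycycline and, for 4 h, 500 µM of the uridine analogue 4-thiouridine (4sU), and then medium with doxycycline and excess uridine for 0, 30, 60, 90, 120 or 150 min. In SLAM-seq the 4sU in RNA is alkylated and read as T-to-C (T>C) conversions, so that RNA made during the pulse can be told from other RNA. Each time had 1 library of nuclear RNA and no replicate. A line in time over 6 libraries therefore carried every test, and p-values measure scatter around that line, not a spread between cultures. In limma each gene's scatter was drawn toward that of all genes tested (empirical Bayes). The limma standard errors and p-values therefore do not rest on that gene alone. Doxycycline was started at staggered times so that all cultures were harvested together, and feeder cells had been removed by pre-plating. Time on doxycycline thus differed between cultures, and it cannot be told apart from washout time. The times were read from column names that carry the time without its last zero, and every slope rests on that reading.

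The libraries held 18558073 to 28535162 reads, and the 45 Usp genes took 0.502% of them. Xist, the induced gene, had 23378 to 32597 reads per library. Of 10 stem cell markers, Pou5f1 and Nanog among them, all had reads, and together they summed to 2982 to 3474 CPM (counts per library total after TMM scaling). Of 10 fibroblast markers, which would mark feeder cells, none was at 0 over all libraries together, and they summed to 288 to 451 CPM. Mean levels per gene ran from 0.076 to 126 CPM for the fibroblast markers and from 110 to 615 CPM for the stem cell markers. In time order the fibroblast sums were 404, 348, 359, 288, 451 and 317 CPM, and the part of feeder cells in the results was not tested.

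Most Usp genes lost label over the washout. The labelled share, the authors' posterior mean of the fraction of a gene's reads that come from labelled RNA, had a median over the 45 genes of 47.3, 48.4, 45.6, 39.0, 27.8 and 20.6% at 0, 30, 60, 90, 120 and 150 min. Over all genes tested the medians were 46.8, 45.8, 44.5, 39.3, 27.7 and 21.1%. By limma on the natural log of the share, 30 of the 45 Usp genes (66.7%) lost label and 0 gained it at an adjusted p under 0.05, and 0 gained it at an unadjusted p under 0.05. The background over 11462 genes was 52.3% losing and 1.19% gaining label. The decay rate, which is the slope of the log share with its sign changed, had a median of 0.35 per h over the Usp genes, against 0.25 per h over all genes tested. Without the 150 min library 14 Usp genes passed (31.1%), the same share as over all genes (31.1%). With libraries weighted by the posterior 13 passed (28.9%), against 25.7% of all genes. The weighting ended the calls of 17 members, those of Usp27x, Usp1, Usp31 and Usp2 among them (limma adjusted p = 0.0752, 0.0554, 0.0553 and 0.0677).

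**Figure D1:**
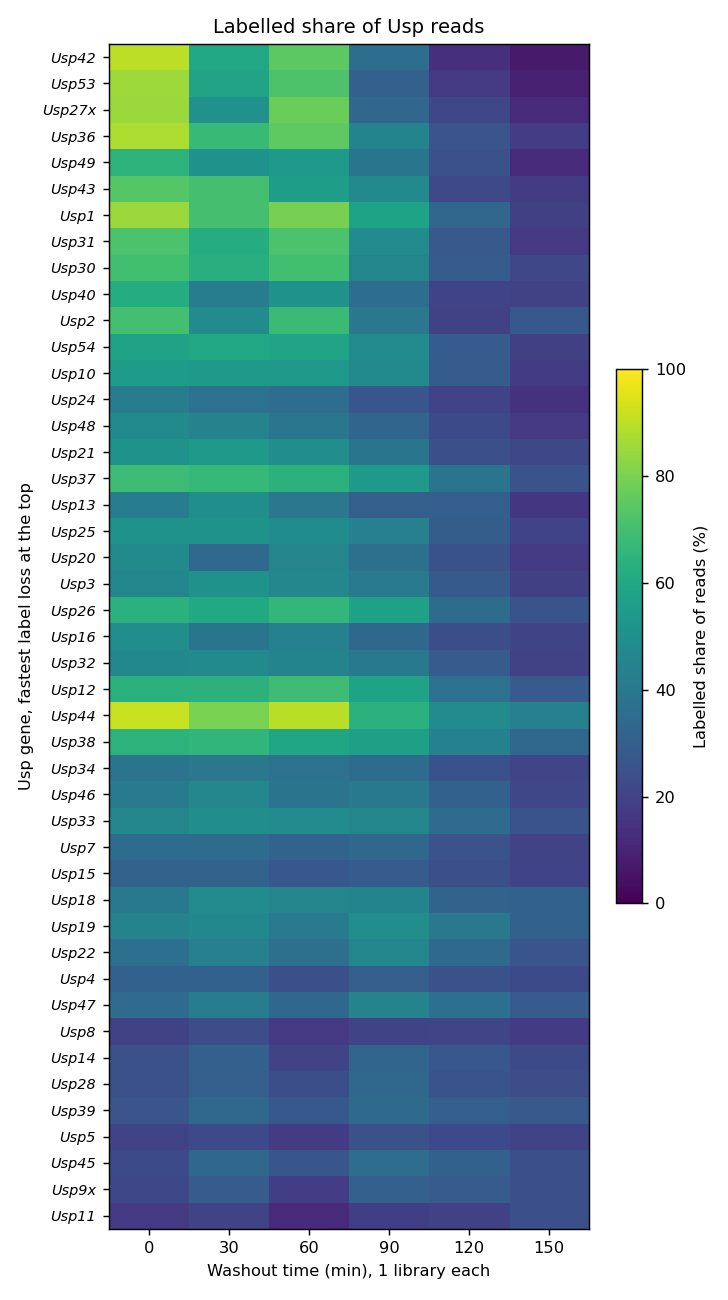
Labelled share of reads (%, colour) for 45 Usp genes (rows, fastest loss at the top) at 6 washout times (columns, min, 1 library each). Shares at the top run from 89.9% (Usp42, 0 min) to 7.42% (150 min), and shares at the bottom stay between 12.1 and 30.6% (Usp9x and Usp11).

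The members spanned a wide range of rates. Half-lives, ln 2 divided by the decay rate, were under 60 min for 3 of the 30 genes that lost label, 60 to 100 min for 12 and over 100 min for 15. Their median was 101 min, against 86.9 min for all genes that lost label. Over the 45 genes the median share was 47.3% at 0, 45.6% at 60 and 20.6% at 150 min. A half-life from a straight line therefore averages slower and faster spans. Since the RNA was nuclear, loss of label by decay and by export from the nucleus cannot be told apart. Standard errors of the rates, moderated over all genes tested, were 0.087 to 0.127 per h. Of the 44 gaps between neighbours in the order of rates, 7 exceeded the standard error of the paired difference, and 1 exceeded it more than 2 times over, that between Usp53 and Usp27x. The other neighbours differed by less than that error.

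**Figure D2:**
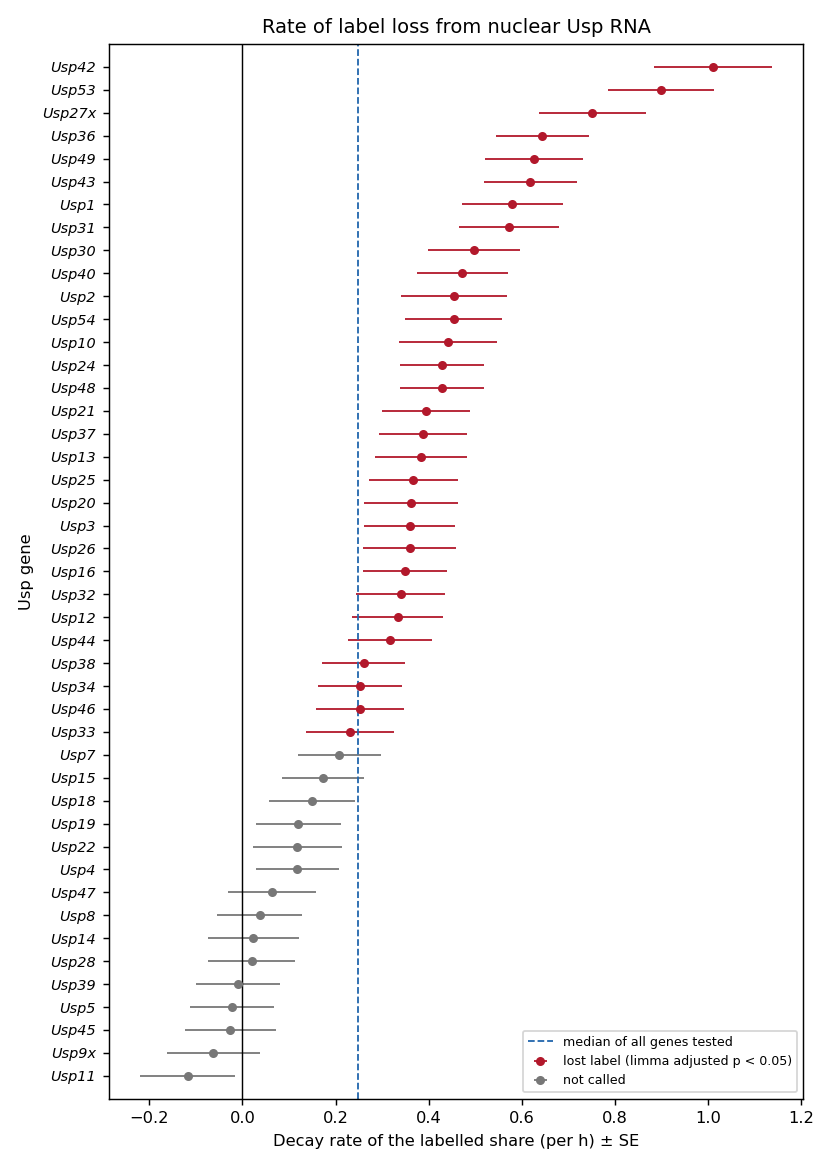
Decay rate of the labelled share (per h, point) with its standard error (bar) for 45 Usp genes in order, coloured by the limma call, with the median of all genes tested as a dashed line at 0.25 per h. Rates run from 1.01 per h for Usp42 to -0.12 per h for Usp11, and most neighbouring bars overlap.

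Usp42, whose human protein removes ubiquitin from p53, had the fastest loss. Its labelled share was 89.9, 59.7, 74.9, 36.1, 13.4 and 7.42% in time order. The value at 60 min was above that at 30 min, and the later libraries were the lowest. With limma (adjusted p = 5.12e-05) this gave 41.2 min as the half-life, 36.6 to 47.1 within 1 SE, which ranked 208 of 11462 genes from the fastest. Usp53, a protein of tight junctions, followed with shares of 85.2, 58.4, 72.1, 30.5, 17.1 and 9.11% in time order and 46.3 min as its half-life, 41.1 to 53.0 within 1 SE (limma adjusted p = 5.12e-05). It too was higher at 60 than at 30 min and lower in each later library.

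Among the chromatin members, 7 of 9 lost label, against 52.3% of all genes, and 8 of 9 had a falling T>C rate, against 66.9%. Usp27x, an X-linked relative of the SAGA enzyme Usp22, had shares of 84.8, 50.6, 77.6, 33.0, 21.3 and 12.2% in time order and 55.3 min as its half-life (limma adjusted p = 9.2e-05). Usp36, a nucleolar enzyme, had 87.7, 67.5, 75.4, 45.2, 26.3 and 17.97% and 64.6 min (limma adjusted p = 0.000102). Usp49, which acts on histone H2B, had 64.5, 51.5, 53.7, 38.7, 24.7 and 11.96% and 66.4 min. All 3 had their lowest share at 150 min and a share at 60 min above that at 30 min. Of the exonic bases annotated to Usp49, many (4392 of 8581 nt) overlap Gm20517 on the same strand, so its reads may not be its own.

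The remaining chromatin enzymes were slower. Usp21, Usp3 and Usp16, each known to remove ubiquitin from histone H2A, had half-lives of 106, 116 and 119 min. Usp16 had shares of 49.0, 38.9, 43.8, 33.3, 23.9 and 20.4% in time order. Usp44, which helps to sustain the mitotic checkpoint and acts on H2B, had the highest labelled share of all members in each library, with 91.5, 79.7, 89.6, 63.9, 48.3 and 43.7% and 131 min as its half-life (limma adjusted p = 0.0079). Without the 150 min library Usp3, Usp16 and Usp44 did not pass (limma adjusted p = 0.155, 0.0539 and 0.0698), and the Usp3 half-life was then 175 min. Usp7, which stabilises Mdm2 and p53, was among the most read members and had 35.2, 35.2, 31.9, 33.7, 25.6 and 20.4%. Its rate of 0.21 ± 0.09 per h (SE) did not pass limma (adjusted p = 0.0623), although its T>C rate fell, and it did pass without the 60 min or the 90 min library (limma adjusted p = 0.0426 and 0.0403). Usp22 itself had 0.12 ± 0.095 per h and did not pass (limma adjusted p = 0.321).

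**Figure D3:**
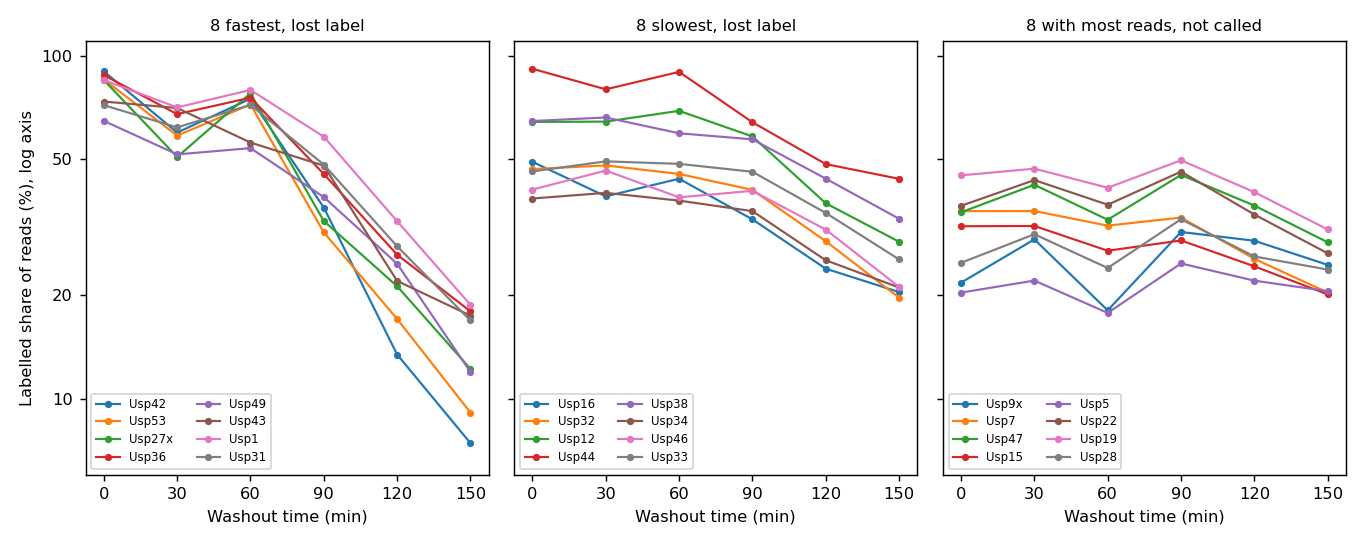
Labelled share (%, log axis) against washout time (min) for the 8 fastest and 8 slowest Usp genes that lost label and for the 8 most read genes that did not pass, 1 line per gene and 1 library per time. The fast genes lie between 7.42 and 18.8% at 150 min, and the genes that did not pass lie between 20.1 and 31.1%.

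Of the 7 members tied to genome stability and the cell cycle, 4 lost label, against 52.3% of all genes. Usp1, which with its cofactor Wdr48 acts on Fancd2 and PCNA in DNA repair, was the fastest, with shares of 84.8, 70.6, 79.4, 58.0, 32.9 and 18.8% in time order and 71.7 min as its half-life, 60.5 to 88.1 within 1 SE (limma adjusted p = 0.000346). Usp10, a p53 regulator that binds the stress granule protein G3bp1, had 54.8, 53.8, 54.2, 47.5, 29.2 and 17.3% and 94.3 min. Its share was level up to 60 min and fell only in the last 3 libraries, and its call was lost without the 150 min library (limma adjusted p = 0.102), where its half-life was 150.2 min. Usp48 had 47.3, 44.7, 39.3, 32.5, 22.3 and 16.7%, lower in each later library, and 97.1 min. Usp37, a regulator of cyclin A, had a half-life of 107 min, a call that was also lost without the 150 min library (limma adjusted p = 0.0959).

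Usp47, Usp28 and Usp11 in this group did not pass. Usp47, linked to base excision repair, had a share of 34.9% at 0 min and 28.6% at 150 min. Usp28, which stabilises Myc, had 24.9% at 0 min and 23.8% at 150 min. Their rates were 0.064 and 0.020 per h (limma adjusted p = 0.601 and 0.877). Usp11 had 17.2, 20.4, 12.1, 18.5, 19.4 and 24.5% in time order, the lowest share of any member at 0 min and a higher one at 150 min, with a rate of -0.12 ± 0.10 per h (SE; limma adjusted p = 0.357).

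Of the 6 members of membrane traffic and organelles, 4 lost label, against 52.3% of all genes. Usp30, which sits on the mitochondrial outer membrane and opposes mitophagy, had 83.6 min as its half-life (limma adjusted p = 0.000591), and its share was 69.7% at 0 min and 21.1% at 150 min. Usp20 and its relative Usp33, both linked to recycling of adrenergic receptors in human cells, had 115 and 180 min, and Usp20 did not pass without the 150 min library (limma adjusted p = 0.155). Usp33 had 46.0, 49.2, 48.4, 45.9, 34.8 and 25.5% in time order and passed narrowly (limma adjusted p = 0.0486). Its call was lost without the 30, 120 or 150 min library (limma adjusted p up to 0.475), and its half-life without the 150 min library was 332 min. Usp32, a Golgi and endosome protein, had 46.7, 47.8, 45.2, 40.6, 28.8 and 19.7% and 122 min, and did not pass without the 150 min library (limma adjusted p = 0.17), where its half-life was 184 min. The endoplasmic reticulum enzyme Usp19 and the endosomal enzyme Usp8 did not pass, with rates of 0.12 ± 0.091 and 0.037 ± 0.091 per h (SE).

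Of the 3 members that recycle ubiquitin 1 lost label, and of the 3 tied to the spliceosome 0 did, against 52.3% of all genes. Usp5, which disassembles free ubiquitin chains, had a share of 20.4% at 0 min and 20.6% at 150 min. Usp14, which trims chains at the proteasome, had 24.8% at 0 min and 22.4% at 150 min, and neither rate, -0.022 per h for Usp5 and 0.024 per h for Usp14, passed limma (adjusted p = 0.861 for each). Usp14 shares 2169 of its 8345 exonic nt with Thoc1 on the other strand. Usp13, a relative of Usp5 with 172 to 209 reads per library, did lose label, with a half-life of 108 min that did not pass without the 150 min library (limma adjusted p = 0.145), where it was 173 min. Among the spliceosome genes, Usp39, a component of the tri-snRNP that lacks deubiquitinase activity, had 26.2% at 0 min and 27.8% at 150 min, with a rate of -0.010 per h. Usp4 and Usp15, which are brought to spliceosomal proteins by Sart3, had rates of 0.12 ± 0.089 and 0.17 ± 0.087 per h (SE). Usp15 did pass for labelled abundance, the share times the scaled reads (limma adjusted p = 0.0223). It was the 1 member that passed only there, while 8 members that passed by share did not pass for labelled abundance.

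Of the 9 signalling members, 7 lost label, against 52.3% of all genes. Usp24 had 41.9, 37.8, 35.7, 26.9, 19.9 and 14.5% in time order, lower at each step, and 96.9 min as its half-life (limma adjusted p = 0.000857). Usp2, with only 76 to 130 reads per library, had 91.6 min, and Usp25 had 113 min. Usp12, which pairs with Wdr48 and Wdr20, had 64.1, 64.2, 69.0, 58.1, 37.1 and 28.7% and 125 min, and its close relative Usp46 had 40.7, 46.2, 38.6, 40.3, 31.1 and 21.2% and 165 min. Usp38 had 64.5, 66.01, 59.4, 57.0, 43.8 and 33.5% and 160 min, and Usp34, which acts on axin in the Wnt pathway, had 38.3, 39.8, 37.8, 35.2, 25.3 and 21.1% and 165 min. In Usp46, Usp38 and Usp34 the last 2 libraries were the lowest. Without the 150 min library the calls of Usp25, Usp12, Usp46, Usp38 and Usp34 were lost (limma adjusted p = 0.129 to 0.438), and the Usp46 half-life was then 309 min. Those of Usp46, Usp38 and Usp34 were also lost without the 30 min or the 120 min library (limma adjusted p = 0.0768 to 0.116). Usp18, which removes the ubiquitin-like Isg15, had a rate of 0.15 per h and did not pass (limma adjusted p = 0.192).

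Usp9x, an X-linked enzyme with many substrates in stem cells, was the most abundant member and did not pass for a loss of label by share. It had 20109 to 32546 reads per library, and shares of 21.8, 29.1, 18.1, 30.6, 28.9 and 24.6% in time order. The 60 min library was the lowest and the 90 min library the highest (rate -0.063 ± 0.10 per h, SE; limma adjusted p = 0.632). Its T>C rate was 2.24, 2.03, 2.05, 2.23, 1.60 and 1.25% of covered T positions in time order, lower in the last 2 libraries, and that slope did not pass either (limma adjusted p = 0.248).

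In the rest of the family, 7 of 8 lost label, against 52.3% of all genes. Besides Usp42 and Usp53 these were Usp43, with 73.5, 70.3, 55.8, 47.8, 22.0 and 17.5% in time order and 67.3 min on 63 to 128 reads per library, and Usp31, with 71.7, 61.8, 71.8, 48.1, 27.8 and 16.9% and 72.6 min. Usp40 had 88.2 min, Usp54 91.8 min and the X-linked Usp26 116 min, of which Usp54 and Usp26 did not pass without the 150 min library (limma adjusted p = 0.0677 and 0.146). Usp45, with a rate of -0.026 per h, was the member that did not pass (limma adjusted p = 0.849). At the read threshold, Usp43 and Usp2 were just inside with means of 103 and 108 reads, and Usp29, Usp35, Usp51 and Usp50 were outside with means of 91.8, 85.5, 82.3 and 46.0. Their reads per library were 48 to 111 for Usp29, 67 to 113 for Usp35, 60 to 111 for Usp51 and 29 to 56 for Usp50.

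The raw T>C rate, conversions divided by covered T positions without the authors' estimate of the labelled share, gave a second measure. It fell for 34 of the 45 by limma, against 66.9% of 11459 genes, and rose for 0, also 0 at an unadjusted p under 0.05. Without the 150 min library 9 passed (20.0%), against 22.9% of all genes. The 34 held all 30 genes that lost label by share, plus Usp7, Usp15, Usp18 and Usp19. Its median over the members was 4.52, 3.22, 4.91, 2.79, 1.49 and 1.05% in time order. All 45 had a lower T>C rate at 150 than at 0 min, as against 40 with a lower share, without a background over all genes for either count. T>C half-lives were shorter than those of the share for all 30 genes, by 1.19 to 2.16 times. They were 34.5 min for Usp42, 87.7 min for Usp33 and 60.9 min for Usp44. Both measures come from the same reads, and over the 45 genes their rates had a Pearson r of 0.99 and a Spearman rho of 0.98, given as a description.

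The 60 min library stood above the 30 min library in T>C rate for 44 of the 45 members, all but Usp11. By share, 16 of the 30 genes that lost label were higher at 60 than at 30 min, Usp42 and Usp53 among them, and 0 of the 15 others were. The 15 others instead had a higher share at 90 than at 60 min in 14 cases, against 1 of the 30. The calls come from the slopes of these same shares, so the contrast is only a description of the fits. These counts between libraries have no background over all genes here, so they are not read as traits of Usp genes. With the 30 and 60 min times exchanged, 30 members lost label, as in the fit on the times as labelled.

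Pairs of closely related Usp genes were compared within the same libraries, by the slope on time of the log ratio of their shares. Of 16 pairs, 14 had both genes above the read threshold. Under the exact permutation of the times (720 orderings, two-sided, smallest possible p = 0.00278), 7 pairs had an unadjusted p under 0.05 and 0 passed after adjustment over the 14 (smallest adjusted p = 0.0648). In decay rate, Usp36 minus Usp42 was -0.37 ± 0.083 per h (SE; exact permutation p = 0.0111). Usp53 minus Usp54 was 0.45 ± 0.089 per h and Usp25 minus Usp28 was 0.35 ± 0.072 per h (exact permutation p = 0.0139 each). Usp22 differed from Usp27x by -0.63 ± 0.17 per h, Usp9x from Usp24 by -0.49 ± 0.13, Usp5 from Usp13 by -0.41 ± 0.11 and Usp16 from Usp45 by 0.37 ± 0.11 per h (exact permutation p = 0.025, 0.0278, 0.0306 and 0.0361).

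**Figure D4:**
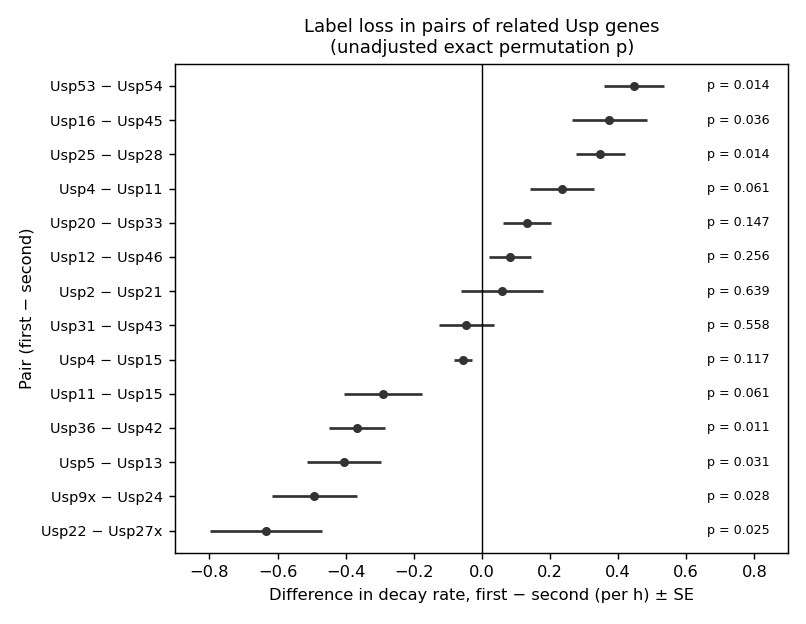
Difference in decay rate (first minus second gene, per h, point) with its standard error (bar) for 14 pairs of related Usp genes, with the unadjusted exact permutation p at the right. Differences run from -0.63 per h (Usp22 and Usp27x) to 0.45 per h (Usp53 and Usp54), and none passes after adjustment.

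Other pairs were closer. Usp12 and Usp46 differed by 0.081 ± 0.061 per h, Usp31 and Usp43 by -0.046 ± 0.08 and Usp2 and Usp21 by 0.06 ± 0.12 per h (SE; exact permutation p = 0.256, 0.558 and 0.639). Usp4 and Usp15 differed by -0.055 ± 0.027 and Usp20 and Usp33 by 0.13 ± 0.071 per h (exact permutation p = 0.117 and 0.147). Usp11 differed from Usp15 by -0.29 ± 0.11 per h and Usp4 from Usp11 by 0.24 ± 0.094 per h (exact permutation p = 0.0611 each). Without the 60 min library 5 pairs passed (those of Usp25, Usp22, Usp16, Usp53 and Usp9x), without the 30 min library 3 did (Usp20, Usp22 and Usp53), and with these times exchanged 8 did.

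Label taken up during the pulse gave a second estimate of turnover, as the half-life at steady state that leaves the share seen at 0 min after 4 h. It shares the 0 min library with the washout. For 29 of the 30 genes that lost label it was longer than the washout half-life, with a median of 167 min, and the median ratio of the 2 was 1.91, against 1.69 over all genes that lost label. For Usp42 uptake gave 72.5 min and the washout 41.2 min. Usp44 was the exception by share, where uptake gave 67.4 min and the washout 131 min. Its ratio was 0.512, and 0.183% of all genes that lost label had a lower one. By T>C rate the washout half-life of Usp44 was 60.9 min, shorter than that from uptake. Usp38 had nearly equal values of 161 and 160 min, a ratio of 1.01, and 4.82% of all genes that lost label had a lower one. A longer half-life from uptake was thus common to most genes that lost label, not particular to Usp genes.

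**Figure D5:**
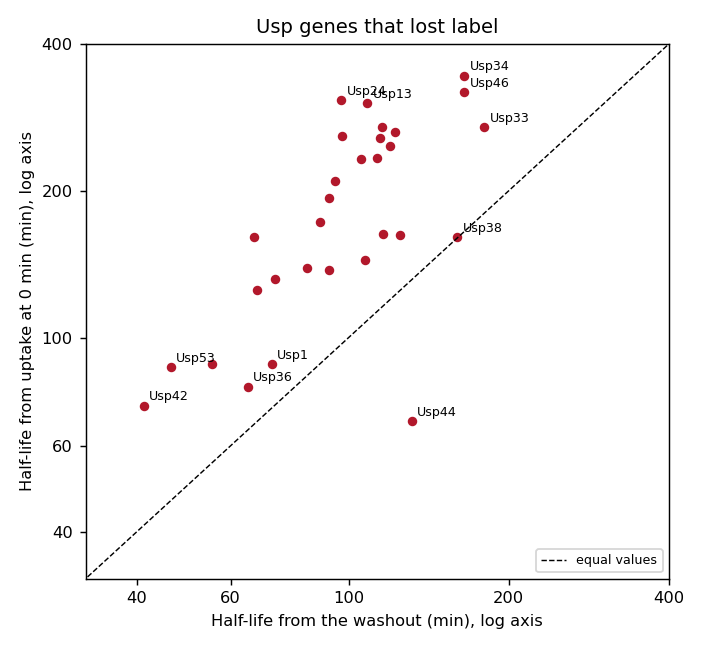
Half-life from uptake at 0 min against half-life from the washout (min, log axes) for the 30 Usp genes that lost label, with a dashed line at equal values. Usp44 (131 and 67.4 min) lies below the line, Usp38 on it and the other genes above it.

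Total reads were tested because a half-life from a share takes levels as constant. In edgeR 0 of the 45 Usp genes passed for a slope on time, as did 0% of 15743 genes, and DESeq2 called 1 Usp gene, Usp11, against 4.53% of all genes. At an unadjusted p under 0.05 in edgeR 13 rose and 2 fell, where the background was 11.5% rising and 10.2% falling. Slopes were positive for 33 of the 45, and their median was 0.068 log2 per h, against -0.0039 over all genes. Without the 60 min library edgeR called 1413 genes, 6 of them members, of which Usp37, Usp42, Usp38, Usp32 and Usp54 rose and Usp11 fell. An exchange of the 30 and 60 min times gave 2884 calls, 15 of them members, with Usp11 the one that fell.

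Usp11, an X-linked enzyme with roles in DNA repair, had 74.1, 63.4, 72.4, 59.8, 40.8 and 44.8 CPM in time order, lower in the last 2 libraries than in the first 4. Its slope was -0.33 ± 0.081 log2 per h (SE; edgeR adjusted p = 0.097; DESeq2 adjusted p = 0.0135). Usp38 had 71.0, 83.3, 64.9, 97.8, 101.2 and 106.7 CPM and a slope of 0.25 ± 0.078 log2 per h (edgeR adjusted p = 0.129). Usp42 had 29.6, 30.3, 26.3, 34.5, 39.5 and 42.1 CPM and 0.23 ± 0.071 log2 per h (edgeR adjusted p = 0.124). In both the last 2 libraries were the highest. Of the 6 most read members, Usp9x, Usp34, Usp7, Usp48 and Usp24 had slopes between -0.056 and 0.053 log2 per h, and Usp10 had 0.19 ± 0.085 log2 per h (SE; edgeR adjusted p = 0.219).

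Per length, Usp9x was the highest member with a mean of 87.6 CPM per kb, ahead of Usp7 with 75.5, Usp10 with 61.6 and Usp14 with 47.4. The lowest were Usp43, Usp13, Usp2 and Usp20 with 1.00, 1.05, 1.19 and 1.92. Over the 45 genes, level per kb and decay rate had a Spearman rho of -0.54 and a Pearson r of -0.42, and both values come from the same libraries. The genomic span of the gene had a rho of -0.0045 with the decay rate, and the length of the annotated 3′ UTR 0.17.

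The annotated 3′ UTRs were searched for TATTTAT, the core of AU-rich elements, which in mammalian cells can mark mRNA for decay. The search used the transcript strand of 1 GENCODE M21 transcript per gene, and overlapping matches were counted. Of the 45 members 19 (42.2%) held it, as did 29.7% of 11158 genes tested. Among genes tested with a 3′ UTR of 708 to 2686 nt, the middle range of the members, 32.8% held it. The 42.2% covers members of every 3′ UTR length, Usp15 with 8499 nt among them, so it is not matched to the 32.8% for length. It stood in 13 of the 30 genes that lost label and in 6 of the 15 others. Median rates were 0.35 per h with the motif and 0.34 per h without it. Usp42, the fastest member, had none in this window. The 5 genes with 3 or 4 matches had half-lives of 46.3 min for Usp53, 72.6 min for Usp31, 108 min for Usp13 and 165 min for Usp46, and a rate of 0.17 per h that did not pass for Usp15. A site from each of 4 of them, Usp53, Usp31, Usp46 and Usp15, is shown because their rates lay far apart. Capitals mark the motif, and all 4 genes lie on the minus strand of mm10.
Usp53, chr3:122932771-122932797: gagtagagttTATTTATttaatatttt
Usp31, chr7:121647034-121647060: tccagtagctTATTTATgtctactctg
Usp46, chr5:74000933-74000959: acattcagtcTATTTATggaggcactg
Usp15, chr10:123111756-123111782: tgtgcatgttTATTTATacagatttca

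Deubiquitinases of other families and cofactors of Usp enzymes were read in the same way against the 52.3% background. Of 34 deubiquitinases from other families, 20 lost label and 0 gained it, with a median rate of 0.27 per h. Otud1 (38.6 min) and Yod1 (43.7 min), both of the OTU family, were the fastest, and Josd2 (161 min) and the chromatin enzyme Bap1 (179 min) the slowest of those that passed. Psmd14, the deubiquitinase of the proteasome lid, and Uchl5 did not pass (limma adjusted p = 0.306 and 0.643). Of 16 cofactors of Usp enzymes 11 lost label, with a median of 0.35 per h. They ran from Wdr20, the partner of Usp12 and Usp46 (43.7 min), and Atxn7, a SAGA subunit (56.1 min), to Stam2, a partner of Usp8 (132 min), and Sgf29 (149 min).

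The library kit keeps strand, but whether the counting used it is not stated in the labels. Exons of 17 of the 45 members overlap a gene on the other strand, 9 of them a protein-coding one, so their reads cannot be fully assigned if strand was ignored.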

How the data were processed

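Nuclear RNA of 6 cultures, 1 per washout time, was read as paired ends of 81 nt. Alignment used STAR 2.5.2b and mm10, per the submitters' processing notes. No label names the counting program or its gene annotation. The authors deposited, per the file headers, raw read counts per gene, converted and covered T positions, and the labelled fraction of reads as a posterior mean, mode and 5% and 95% quantiles. The alpha and beta score columns that the authors deposited were not used.

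Column times were read from sample titles. limma 3.58.1 fitted the natural log of the fraction, and of the T>C rate, on hours. Genes averaged 100 reads or more, with values above 0 in all libraries. Each fit had 4 residual degrees of freedom before empirical Bayes moderation over all genes tested. edgeR 4.0.16 (quasi-likelihood, TMM, filterByExpr) and DESeq2 1.42.0 tested counts. Adjustment was by Benjamini-Hochberg over all genes, at 0.05. The share and count fits and the permutation test were tested on simulated data. Gene IDs, exons and 3′ UTRs came from GENCODE M21, which matched all 49 genes. Members, lists and pairs were chosen with earlier results of these data known. Named genes followed a rule: every member, with values in all libraries for the 8 shortest and 8 longest half-lives, the 6 most read, any member that gained label and any called in total reads or in a pair, and the 2 shortest and 2 longest of each list. Psmd14, Uchl5 and the values in all libraries of other members were added after they were seen. A further gene list is not reported here because of an item in it, not because of its values.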

Additional observations from a re-analysis of the deposited data

How the results depend on the processing

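Over 14 alternatives for the labelled share, 10 members lost label in every one that gave them a value: Usp42, Usp53, Usp36, Usp49, Usp43, Usp30, Usp40, Usp24, Usp48 and Usp21. Leaving out each library gave 3594 to 6318 genes (31.1 to 55.4%) and 14 to 31 Usp genes (31.1 to 68.9%) that lost label. It gave 9 to 42 Usp genes (20.0 to 93.3%) with a falling T>C rate, against 22.9 to 80.8% of all genes. In total reads 0 to 6 Usp genes were called, and 0 to 5 pairs passed. The lowest counts for label came without the 150 min library. With libraries weighted by the posterior, 2949 genes and 13 Usp genes lost label. Labelled abundance ended the calls of 8 members and added that of 1, Usp15. The 8 were Usp37, Usp13, Usp25, Usp32, Usp12, Usp38, Usp46 and Usp33. With the 30 and 60 min times exchanged, 15 Usp genes were called in total reads and 8 pairs passed. Without both of those libraries 2 Usp genes were called in total reads, and with DESeq2 or with no filter on low counts 1 was. The cause of these shifts was not tested. Every decay rate that changed sign belonged to 8 members that had not passed, or to pairs that had not. Leaving out each library gave -0.141 to 0.097 per h for Usp45, -0.0588 to 0.0582 for Usp39, -0.0372 to 0.0793 for Usp28, -0.0484 to 0.0701 for Usp14, -0.0313 to 0.135 for Usp47 and -0.030 to 0.19 for Usp2 minus Usp21. Exchanged times gave -0.00141 for Usp8, -0.00609 for Usp28 and -0.0213 for Usp14. Labelled abundance gave 0.0296 for Usp5, 0.0226 for Usp39, -0.0176 for Usp14, 0.112 for Usp11 and -0.0392 for Usp4 minus Usp11. Posterior weights gave -0.019 for Usp28 and -0.00682 for Usp14. No paired analysis was possible because no time had a second library. With 1 library per time, a deviation of a library cannot be told apart from its time.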
